A study of Rattus norvegicus with 102 samples.

Results

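The 8 genes App, Bace1, Psen2, Mapt, Apoe, Clu, Bin1 and Sorl1 carry the pathology of Alzheimer disease or were tied to its risk by human genetics, and their mRNA was followed here in the hippocampal subfields CA1 and CA3 and in the dentate gyrus (DG) of the rat. Their rows were found by gene symbol, a rule that uses no measured value, and made up 8 of the 26284 genes listed in the Illumina table. All 8 were also listed in the other tables and passed the filter on low values in each comparison.

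The study set cognitive ageing against the gene expression in male Fischer 344 rats (spelled Fisher in the labels). There were 10 young rats of 5 to 6 months and 24 aged rats of 17 to 22 months, and the aged rats were classed by their spatial memory in the water maze as aged unimpaired (12 rats) or aged impaired (12 rats). The labels name no transgene, drug or other treatment for any group, and tissue was taken after behavioural testing. Each rat gave all 3 subfields, so each table held 34 libraries of each subfield, and the same RNA was read from poly-A libraries on an Illumina sequencer and on an Ion Proton sequencer. A further table named WT, whose name is not explained in the sources used here, held the same samples.

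App encodes the amyloid precursor protein. Bace1, the beta-secretase, makes the first cleavage on the path to amyloid-beta, and Psen2 is a catalytic subunit of gamma-secretase, which makes the last. Mapt encodes tau, the axonal microtubule protein that forms neurofibrillary tangles. Apoe and Clu encode the apolipoproteins E and J, which in brain come largely from glia, mainly astrocytes, carry lipid and bind amyloid-beta. Bin1 encodes a membrane-bending protein of endocytosis that is abundant in oligodendrocytes as well as in neurons, and Sorl1 encodes a sorting receptor that routes the precursor protein away from the endosomes where it is cleaved.

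In the files App is ENSRNOG00000006997 on chromosome 11, Bace1 is ENSRNOG00000016847 on chromosome 8, Psen2 is ENSRNOG00000002879 on chromosome 13 and Mapt is ENSRNOG00000005133 on chromosome 10. Apoe is ENSRNOG00000018454 on chromosome 1, Clu is ENSRNOG00000016460 on chromosome 15, Bin1 is ENSRNOG00000012852 on chromosome 18 and Sorl1 is ENSRNOG00000024374 on chromosome 8. All 8 are listed as protein coding on the rn5 build, without start and end. The sources name both a stranded and an unstranded kit, so reads of an overlapping gene on the other strand may be included in any of these values.

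Values below are normalised read counts of the Illumina table unless another table is named. They were normalised within a table but not for gene length, so levels were compared between samples and not between genes. Illumina libraries held 3.25 to 42.75 M reads over genes (median 10.75). Ion Proton libraries held 4.47 to 21.43 M reads (median 9.74). Markers of the subfields followed the labels in most libraries, though not in every pair. All 4 tested CA1 markers were higher in CA1 than in either other subfield, and 4 of 4 DG markers were higher in DG. Of 5 CA3 markers 3 were higher in CA3 than in CA1, and 1 was higher and 1 lower in CA3 than in DG. The 4 DG markers were also called higher in CA1 than in CA3 (median log2 difference 1.64). Of the CA3 markers, 3 of 5 were called lower in CA1 than in DG. In both poly-A tables, however, 12 libraries from 9 rats lay nearer to another subfield than to their label, namely 1 of CA1, 7 of CA3 and 4 of DG. In 1 rat the CA1 library lay nearest to DG and the DG library nearest to CA1. In another the CA3 library lay nearest to DG and the DG library nearest to CA3. Whether samples had been exchanged was not tested. Of the 12 libraries, 10 came from the 16 rats numbered from 9000 up and 2 from the 18 rats with lower numbers. Both series held all 3 classes (5 young, 6 unimpaired and 7 impaired rats below 9000, and 5, 6 and 5 from 9000 up). The rats were kept and tested at sites in Florida and in Arizona, with a different supplier for each. The series below 9000, with 5 young and 13 aged rats, matches the Florida numbers in the methods, and the other, with 5 young and 11 aged rats, the Arizona numbers. No label ties a single rat or number to a site, so the series are named by their numbers here.

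The 8 genes differed little between subfields. A gene was called when limma gave a Benjamini-Hochberg adjusted p under 0.05 in both poly-A tables with the same direction. App was lower in CA1 than in CA3, Bin1 was lower in DG than in both other subfields, and Sorl1 was higher in CA1 than in DG. The remaining 5 genes were called in none of the 3 pairs in this fit. With the rat, which gave all 3 subfields, as a replicate block, Sorl1 was also called higher in CA1 than in CA3 (0.19, limma, adjusted p = 0.0124 on Illumina and 0.0429 on Ion Proton) and Clu higher in CA3 than in DG (0.16, adjusted p = 0.000166 and 0.0412). In the fit without the block, no member differed by more than 0.24 on the log2 scale in the Illumina table. CA1 against CA3 gave 1 member of 8, where 14.1% of all genes tested were called. CA1 against DG gave 2 of 8 where 26.4% of genes were called, and CA3 against DG gave 1 of 8 where 27.9% were called. In this fit the shares of members called were thus near or below those of all genes. Under some alternatives, given at the end, they lay above. The members' median differences were -0.07, 0.06 and 0.06 on the log2 scale, beside medians of 0.01, 0.00 and 0.01 over all genes. In bulk tissue of this kind fewer cells of a type and less RNA per cell cannot be told apart.

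**Figure D1:**
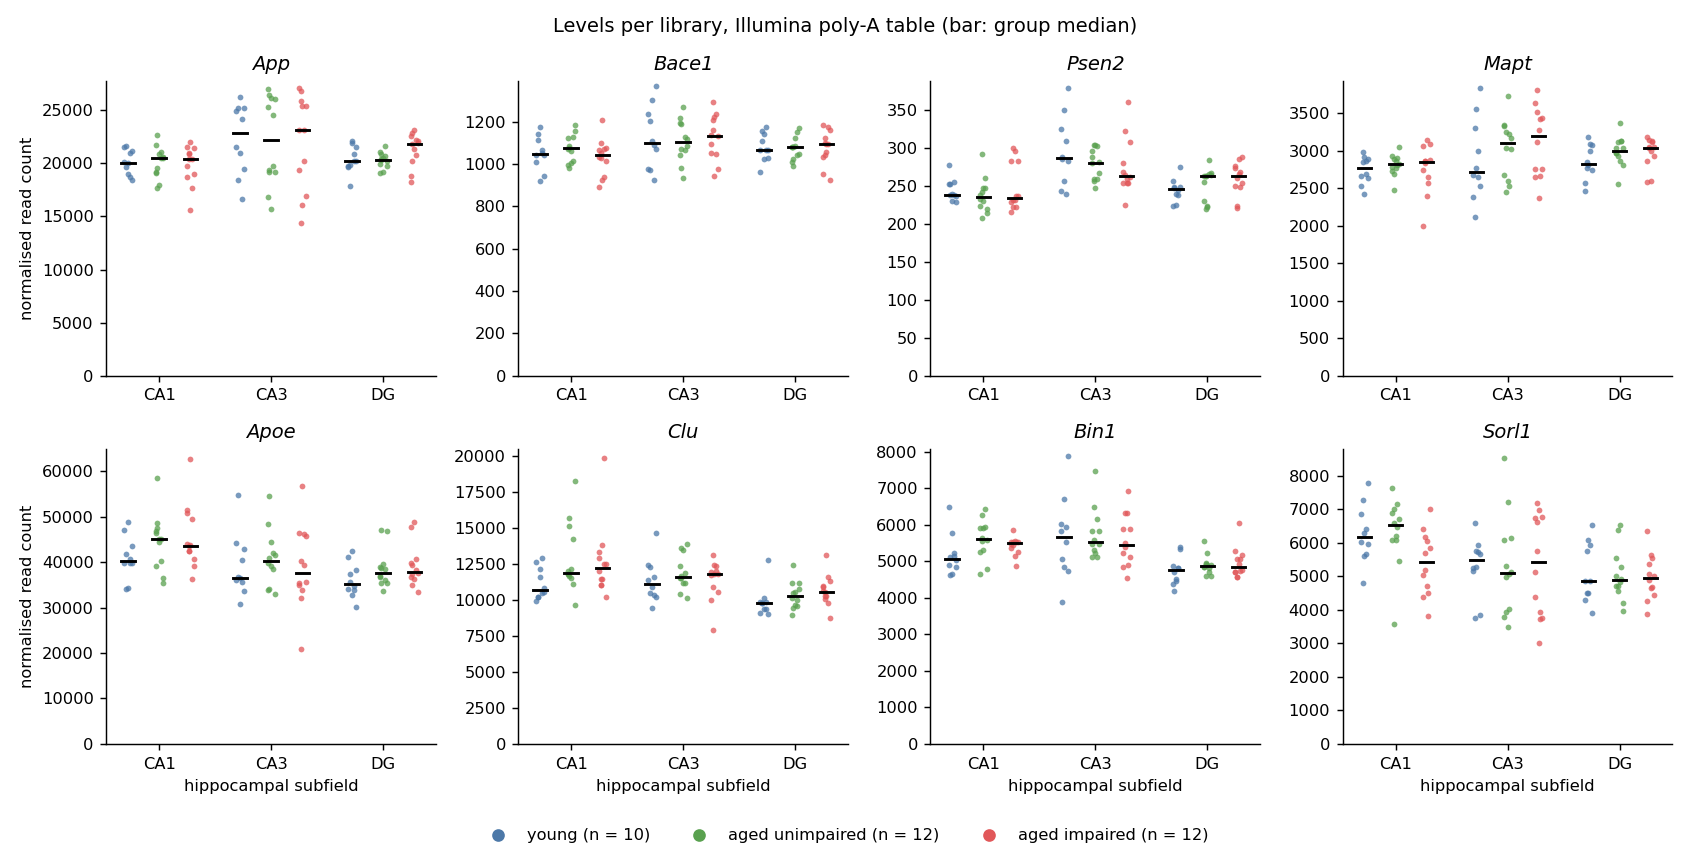
Normalised read count of each of the 8 genes in every Illumina library (vertical axis, one panel a gene) by subfield and class (horizontal axis), with a bar at the median of each group. In all panels the young, aged unimpaired and aged impaired rats overlap within each subfield, and App spreads most in CA3, where it ranges from 14377 to 27119.

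App, the source of amyloid-beta, ranged from 15597 to 22653 in CA1 (median 20413), from 14377 to 27119 in CA3 (median 23149) and, in DG, from 17868 to 23174 (median 20616) over 34 libraries each. Over all rats the CA3 range enclosed both others. In the rats numbered below 9000 alone, CA3 (23130 to 27119) lay wholly above CA1 (19163 to 22653) and DG (17868 to 22858). App was lower in CA1 than in CA3 by a log2 difference of -0.12 ± 0.04 (SE, limma, adjusted p = 0.0177) and of -0.15 in the Ion Proton table (adjusted p = 0.0391). Without the 12 libraries nearer to another subfield it was -0.19 on Illumina. Within rats, CA1 was below CA3 in 25 of 34, in 26 of 34 on Ion Proton and in 31 of 34 in the WT table. The call was lost with quantile normalisation, where the difference was -0.05 (limma, adjusted p = 0.294). With no filter on low values, with TMM factors and without the deeply sequenced rats the Illumina differences were -0.12, -0.13 and -0.12, but App no longer passed on Ion Proton (limma, adjusted p = 0.0627, 0.0524 and 0.136), so that the call was lost there too. The Illumina difference also varied by number series. Its mean was -0.29 in the rats below 9000 (CA1 lower in 18 of 18) and 0.058 in those from 9000 up (CA1 lower in 7 of 16). Of 8 neuronal markers, 5 were called lower and 2 higher in CA1 than in CA3, with a median log2 difference of -0.29, and their part in the App difference was not tested.

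Of the secretase genes, Bace1 lay between 894 and 1207 in CA1 (median 1058), 923 and 1369 in CA3 (median 1115) and 926 and 1187 in DG (median 1081). Psen2 lay between 208 and 300 in CA1 (median 237), 225 and 379 in CA3 (median 280) and 220 and 288 in DG (median 254). Both had their highest values in CA3, with overlapping subfields. Psen2 gave a log2 difference of -0.21 between CA1 and CA3 in the Illumina table (limma, adjusted p = 7.77e-07), which did not pass on Ion Proton (-0.11, adjusted p = 0.475). Bace1 likewise gave -0.08 between CA1 and CA3 (limma, adjusted p = 0.0150 on Illumina and 0.407 on Ion Proton).

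Mapt ranged from 2000 to 3142 in CA1 (median 2833), from 2122 to 3838 in CA3 (median 3034) and from 2465 to 3368 in DG (median 2996). Its difference between CA1 and CA3 was -0.11 on Illumina (limma, adjusted p = 0.0174) and -0.05 on Ion Proton (adjusted p = 0.744). Between CA1 and DG the platforms gave opposite signs, -0.09 on Illumina and 0.13 on Ion Proton.

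For the apolipoprotein genes the comparison of CA1 with DG differed between platforms. Apoe ranged from 34081 to 62795 in CA1 (median 43574), from 20860 to 56815 in CA3 (median 39274) and from 30219 to 48783 in DG (median 37431). Clu ranged from 9659 to 19860 in CA1 (median 11778), from 7876 to 14611 in CA3 (median 11614) and from 8758 to 13143 in DG (median 10129). On Illumina, CA1 exceeded DG in 31 of 34 rats for Apoe and in 32 of 34 for Clu, with log2 differences of 0.20 and 0.24 (limma, adjusted p = 0.00103 and 4.34e-06). On Ion Proton the same differences were 0.03 for Apoe, with CA1 above in 18 of 34 rats, and 0.13 for Clu, with CA1 above in 24 of 34 rats. Neither passed there (limma, adjusted p = 0.833 and 0.246), so neither was called. Between CA1 and CA3 Apoe differed by 0.15 on Illumina (limma, adjusted p = 0.0164) and 0.11 on Ion Proton (adjusted p = 0.518), and Clu by 0.08 (adjusted p = 0.158) and -0.07 (adjusted p = 0.654).

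Among the called members, Bin1 had the difference that was largest relative to its error. It ranged from 4626 to 6484 in CA1 (median 5456), from 3890 to 7864 in CA3 (median 5513) and from 4178 to 6044 in DG (median 4829). DG was the low subfield, although its range overlapped both others. CA1 exceeded DG by 0.15 ± 0.04 on the log2 scale (SE, limma, adjusted p = 0.000390, and 0.17 with adjusted p = 0.0149 on Ion Proton), in 29 of 34 rats on Illumina and 26 of 34 on Ion Proton. CA3 exceeded DG by 0.20 ± 0.04 (SE, limma, adjusted p = 1.78e-06, and 0.23 with adjusted p = 0.000569 on Ion Proton), in 27 of 34 rats on Illumina and 23 of 34 on Ion Proton. Without the libraries nearer to another subfield these differences were 0.15 and 0.23. On Illumina the difference between CA1 and DG was 0.15 in both number series, while on Ion Proton it was 0.09 below 9000 (higher in CA1 in 12 of 18 rats) and 0.25 from 9000 up (14 of 16), and the call was lost in the rats below 9000 (limma, adjusted p = 0.485 on Ion Proton). The difference between CA3 and DG was 0.35 below 9000 and 0.03 from 9000 up on Illumina, and 0.32 and 0.13 on Ion Proton. From 9000 up it was seen in 9 of 16 rats on Illumina and 8 of 16 on Ion Proton, and in those rats alone the call was lost (limma, adjusted p = 0.602 and 0.185). Oligodendrocyte markers moved the same way: 8 of 8 were called higher in CA1 than in DG (median log2 difference 0.73) and 8 of 8 higher in CA3 than in DG (median 0.91), as were 4 of 4 markers of their precursors. So were 3 and 6 of 8 microglial markers and 2 of 6 choroid plexus and ependymal markers in each pair. In CA1 3 of 6 endothelial and in CA3 2 of 8 astrocyte markers were also higher. Of 8 neuronal markers 4 and 1 were called lower than in DG. The part of these markers in the Bin1 difference was not tested.

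Sorl1 ranged from 3561 to 7773 in CA1 (median 6071), from 3014 to 8511 in CA3 (median 5259) and from 3858 to 6522 in DG (median 4872). CA1 held the highest median and CA3 the widest range. CA1 exceeded DG by 0.24 ± 0.07 on the log2 scale (SE, limma, adjusted p = 0.00249, and 0.25 with adjusted p = 0.00640 on Ion Proton). This was seen in 26 of 34 rats on Illumina, 27 of 34 on Ion Proton and 26 of 34 in the WT table. Without the libraries nearer to another subfield the difference was 0.26. By number series it was 0.36 below 9000 and 0.10 from 9000 up, and in the latter rats alone it did not pass (limma, adjusted p = 0.424). In rats from 9000 up Sorl1 was instead called lower in CA3 than in DG, by -0.24 on Illumina and -0.30 on Ion Proton (limma, adjusted p = 0.0411 and 0.0116), in 13 of 16 rats on each. Among the markers, 4 of 8 neuronal ones were called lower and 0 higher in CA1 than in DG, while 8 of 8 oligodendrocyte, 4 of 4 precursor, 3 of 8 microglial, 3 of 6 endothelial and 2 of 6 choroid plexus and ependymal markers were called higher. Their part in the Sorl1 difference was not tested.

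Around the 8 members, 71 genes of 6 lists of related function were tested. Taking the 3 pairs in the order used above, 16, 22 and 24 of them were called, beside shares of 14.1%, 26.4% and 27.9% of all genes. Among 12 tested genes of precursor processing, CA1 against CA3 gave 3 lower and 0 higher. Bace2, a homologue of Bace1, was the most different, at -1.17 in CA1 against CA3 and 0.91 in CA3 against DG. Adam17, an alpha-secretase, was higher in CA1 than in DG by 0.39 and in CA3 than in DG by 0.38. CA1 against DG gave 1 higher and 2 lower in this list, and CA3 against DG 3 higher and 1 lower. Its medians were -0.02, -0.03 and 0.11 in the order of the 3 pairs.

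Of 7 tested genes of amyloid-beta clearance, 1, 3 and 1 were higher in the first-named subfield of the 3 pairs and 0 were lower in each, with medians of 0.00, -0.01 and 0.07. Mme, which encodes the amyloid-degrading protease neprilysin, was higher in CA1 than in CA3 by 0.45 and than in DG by 0.68. Of 16 tau kinases, partners and related microtubule proteins, 2, 3 and 1 were lower and 0, 0 and 1 higher, with medians of -0.02, -0.09 and -0.01. Map1b, another microtubule-associated protein, was the most different at -0.39 between CA1 and CA3 and -0.55 between CA1 and DG.

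Of 8 genes of lipid carriage and lipoprotein receptors, 2, 1 and 1 were lower and 0, 1 and 2 higher, with medians of -0.12, -0.01 and 0.00. Lpl, the lipoprotein lipase, was lower in CA1 than in CA3 (-0.97) and DG (-1.16), and Apod, an apolipoprotein of myelin-forming cells, was higher in CA1 than in DG by 0.69 and in CA3 than in DG by 0.87. Of 14 genes of sorting and endocytosis, 3, 4 and 1 were lower and 0, 3 and 4 higher, with medians of -0.13, -0.02 and 0.02. Amph, the homologue of Bin1, was lower in CA1 than in CA3 (-0.41), and Sorcs1, a relative of Sorl1, was higher in CA1 (0.37) and in CA3 (0.40) than in DG.

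Of 14 tested genes at other risk loci, 4, 2 and 4 were higher and 1, 2 and 5 lower, with medians of 0.02, 0.02 and 0.16, beside the same shares of all genes. Slc24a4, a cation exchanger, was higher in CA1 than in CA3 by 0.70 and called lower in CA3 than in DG. Inpp5d, a phosphatase of microglia, was higher in CA1 than in DG by 0.68 and in CA3 than in DG by 0.44. Of 8 microglial markers, 3 were also higher in CA1 than in DG and 6 in CA3 than in DG.

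The question of age was asked within each subfield, with the 24 aged rats against the 10 young. A gene was called when it passed p = 0.01 in the Illumina table and then, in the same direction, a one-sided p of 0.05 in the Ion Proton table. Those libraries came from the same RNA of the same rats, so this repeats the measurement and not the animals. A stricter reading asked for an adjusted p under 0.05 in the Illumina table. None of the 8 members was called in any subfield under either reading. In CA1, 0 of 8 were called by limma where 0.832% of genes passed the first reading and 0.338% the second. In CA3, 0 of 8 were called where 0.393% and 0% passed, and in DG 0 of 8 where 1.07% and 0.300% passed. Read against these shares, 0 of 8 is near the background. At an unadjusted p under 0.05 the Illumina table gave 1 member in CA1, 0 in CA3 and 0 in DG. The count tests of edgeR and DESeq2 on the recovered reads called 0 of 8 in each subfield as well.

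**Figure D2:**
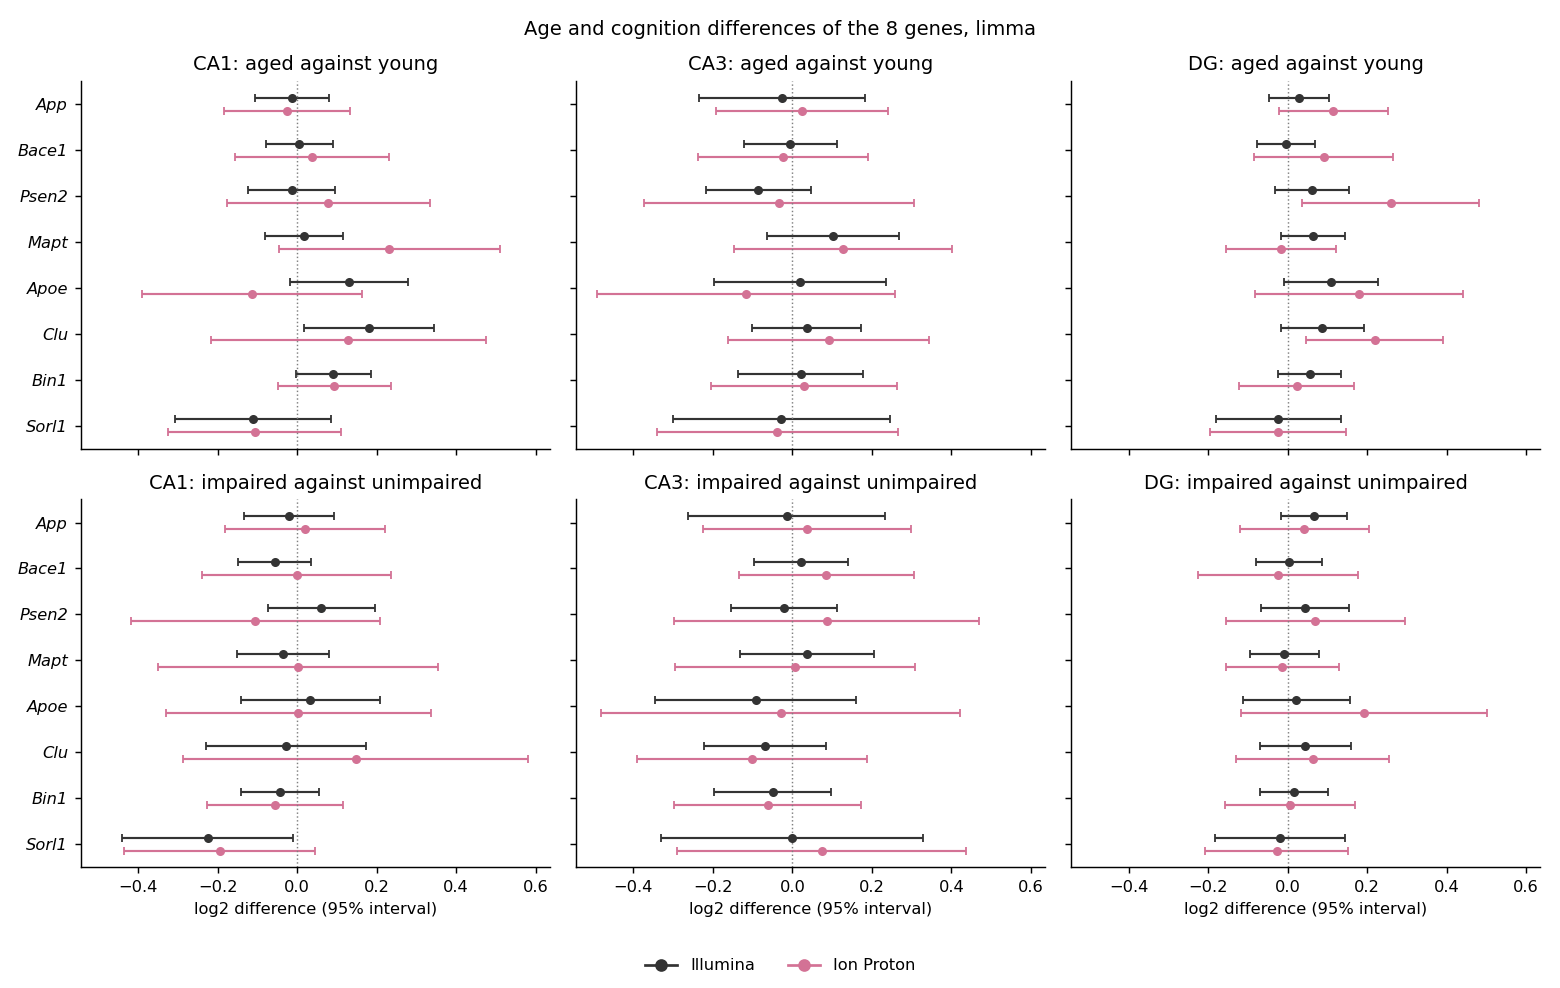
Log2 difference of each gene with its 95% interval (horizontal axis) for aged minus young and for aged impaired minus aged unimpaired in CA1, CA3 and DG, from the Illumina and the Ion Proton table. Most intervals include 0 and none of the differences was called. The exceptions on Ion Proton are Clu and Psen2 with age in DG, at 0.22 and 0.26. Those on Illumina are Clu with age in CA1, at 0.18 with an interval of 0.02 to 0.35, and Sorl1 with impairment in CA1, at -0.23 with an interval of -0.44 to -0.01.

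Clu in CA1 was the member with p under 0.05. Its values were 9912, 10709 and 12882 (lowest, median and highest) in young rats, 9659, 11897 and 18241 in aged unimpaired rats and 10167, 12236 and 19860 in aged impaired rats. The classes overlapped, with 22 of 24 aged rats above the young median. The log2 difference of aged from young was 0.18 (95% interval 0.02 to 0.35, limma, p = 0.0312, adjusted p = 0.723), 0.13 on Ion Proton (p = 0.458) and 0.12 in the WT table (p = 0.0632). By class the difference from the same young rats was 0.20 in unimpaired and 0.17 in impaired rats. By number series it was 0.11 below 9000 and 0.28 from 9000 up on Illumina, and -0.06 and 0.37 on Ion Proton.

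In 4 CA1 libraries, all of aged rats, the summed level of 6 markers of choroid plexus and ependyma exceeded 10000. The CA1 medians of the classes were 387, 235 and 291. Clu in those 4 libraries was 12519 to 19860 (median 16224). Without them the aged difference fell from 0.18 to 0.11 on Illumina, from 0.13 to -0.02 on Ion Proton and, where 3 libraries passed that level, from 0.12 to 0.06 in the WT table. The limit of 10000 was chosen after the data had been seen. All libraries left out were of aged rats, and these markers went with Clu (r = 0.60 on Illumina and 0.55 on Ion Proton). A fall was therefore likely beforehand, so the omission is a description. The part of these markers in the Clu difference was not tested further.

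Apoe was not called with age in any subfield. In CA1 its young values were 34081, 40262 and 48770 and its aged values 35380, 44261 and 62795, with 18 of 24 aged rats above the young median. In DG they were 30219, 35299 and 42564 in young and 33512, 37965 and 48783 in aged rats, with 21 of 24 above that median. The log2 differences were 0.13 in CA1 (interval -0.02 to 0.28, limma, p = 0.0839), 0.02 in CA3 (interval -0.20 to 0.24) and 0.11 in DG (interval -0.01 to 0.23, p = 0.0692). On Ion Proton they were -0.11, -0.12 and 0.18 and in the WT table they were 0.08, 0.01 and -0.01, so in no subfield did all 3 tables share a sign. Clu in DG gave 0.09 on Illumina (p = 0.0986), 0.22 on Ion Proton (p = 0.0144, adjusted p = 0.582) and 0.04 in the WT table.

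Bin1 in CA1 had young values of 4626, 5072 and 6484 and aged values of 4649, 5514 and 6431. The ranges were nearly the same, although 21 of 24 aged rats lay above the young median. The difference was 0.09 on both poly-A platforms and in the WT table (Illumina interval -0.0034 to 0.19, limma, p = 0.0584, adjusted p = 0.846). In CA3 and DG Bin1 differed by 0.02 and 0.06.

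The genes of the amyloid path itself were not called either. App differed by -0.01 in CA1 (interval -0.11 to 0.08), -0.03 in CA3 (interval -0.24 to 0.18) and 0.03 in DG (interval -0.05 to 0.10). Bace1 differed by 0.01, -0.01 and 0.00, with intervals whose widest bounds were -0.12 and 0.11 in CA3. Psen2 gave -0.01, -0.09 and 0.06 on Illumina, and in DG 0.26 on Ion Proton (p = 0.0235, adjusted p = 0.585), the largest age difference of a member on that platform. Mapt gave 0.02, 0.10 and 0.06 on Illumina and 0.23 (p = 0.0989), 0.13 and -0.02 on Ion Proton. Sorl1 gave -0.11, -0.03 and -0.02 on Illumina and -0.11, -0.04 and -0.02 on Ion Proton. Over the 8 members the median age difference was 0.01 in CA1, 0.01 in CA3 and 0.06 in DG, beside 0.00, -0.01 and 0.00 over all genes.

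Among the surrounding lists, age calls fell on the risk loci, and no gene of the other 5 lists was called by limma in any subfield (at an unadjusted p under 0.05, 0, 3 and 0 of their 57 tested genes in CA1, CA3 and DG). Calls here are those of the first reading, which took 0.832%, 0.393% and 1.07% of all genes in CA1, CA3 and DG. In CA1, 2 of 14 tested risk genes rose, Trem2, a lipid receptor of microglia, by 0.49 and Grn, the precursor of the lysosomal granulins, by 0.20 (limma, adjusted p = 0.00575 and 0.0204). Cd33, a sialic acid receptor of myeloid cells, also held after adjustment on Illumina at 0.45 (limma, adjusted p = 0.00320), but at 0.29 on Ion Proton it was not among these calls. In CA3 Trem2 was called at 0.31, which did not hold after adjustment (limma, adjusted p = 0.999). In DG 4 of 14 were called, namely Cd33 at 0.39 and Trem2 at 0.38, which held (adjusted p = 0.0257 and 0.0104), and Plcg2 at 0.38 and Grn at 0.15, which did not (adjusted p = 0.0845 and 0.0737). Of 8 microglial markers, a list that also holds Trem2, 4 were called higher in CA1, 5 in DG and 2 in CA3, of which 1, 3 and 0 held after adjustment, with median differences in CA1, CA3 and DG of 0.27, 0.22 and 0.23. Gfap, the intermediate filament of reactive astrocytes, was called in all 3 subfields at 0.44, 0.45 and 0.41 and held after adjustment in DG alone (limma, adjusted p = 0.105, 0.367 and 0.00209). It was the 1 astrocyte marker of 8 that was called, and that list had medians of 0.06, 0.08 and 0.03. The risk list had medians of 0.13, 0.11 and 0.14.

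The comparison of aged impaired with aged unimpaired rats asked which genes go with memory rather than with age. Again limma called 0 of 8 members in each subfield. In CA1 0.620% of all genes passed the first reading and 0% the second. In CA3 these shares were 0.0211% and 0%, and in DG 0.121% and 0%. At an unadjusted p under 0.05 there was 1 member in CA1 and 0 in either other subfield, and edgeR and DESeq2 called 0 of 8 in each. None of the 6 surrounding gene lists held a gene called by limma in any subfield, with 7, 1 and 3 genes at an unadjusted p under 0.05. The members' median differences were -0.03, -0.02 and 0.02, beside 0.00 in all 3 subfields over all genes.

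Sorl1 in CA1 was that member. Its values were 4797, 6162 and 7773 (lowest, median and highest) in young, 3561, 6535 and 7636 in aged unimpaired and 3813, 5433 and 7003 in aged impaired rats. The aged classes overlapped, but 1 of 12 impaired rats lay above the unimpaired median. On Ion Proton the unimpaired values were 3573, 6313 and 7665 and the impaired values 3380, 5408 and 6722. In the WT table they were 2655, 5362 and 6551 against 3227, 4188 and 4699. In all 3 tables the highest aged value belonged to an unimpaired rat.

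The means were 6265 ± 867 (SD, n = 10) in young, 6318 ± 1042 (SD, n = 12) in unimpaired and 5398 ± 946 (SD, n = 12) in impaired rats. The log2 difference of impaired from unimpaired was -0.23 (95% interval -0.44 to -0.01, limma, p = 0.0411, adjusted p = 0.848), -0.20 on Ion Proton (p = 0.108) and -0.27 in the WT table (p = 0.0238). Set against the same 10 young rats, the unimpaired differed by 0.00 and the impaired by -0.22. The difference was -0.20 in rats numbered below 9000 and -0.29 in those from 9000 up, and lay between -0.30 and -0.18 when each rat was left out in turn.

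Without the libraries that lay nearer to another subfield, of which CA1 held 1, an aged unimpaired rat, the Sorl1 difference was -0.30 (limma, p = 0.00142, adjusted p = 0.385) and passed the first reading, as did 0.846% of genes there. Without the 7 rats sequenced beyond 25 M reads it was -0.14 (p = 0.232). In CA1 the summed neuronal markers had medians of 91401 in unimpaired and 86430 in impaired rats, with ranges of 69038 to 105431 and 66671 to 91960. The summed CA1 markers had medians of 15804 and 13429. Their part in the Sorl1 difference was not tested.

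**Figure D3:**
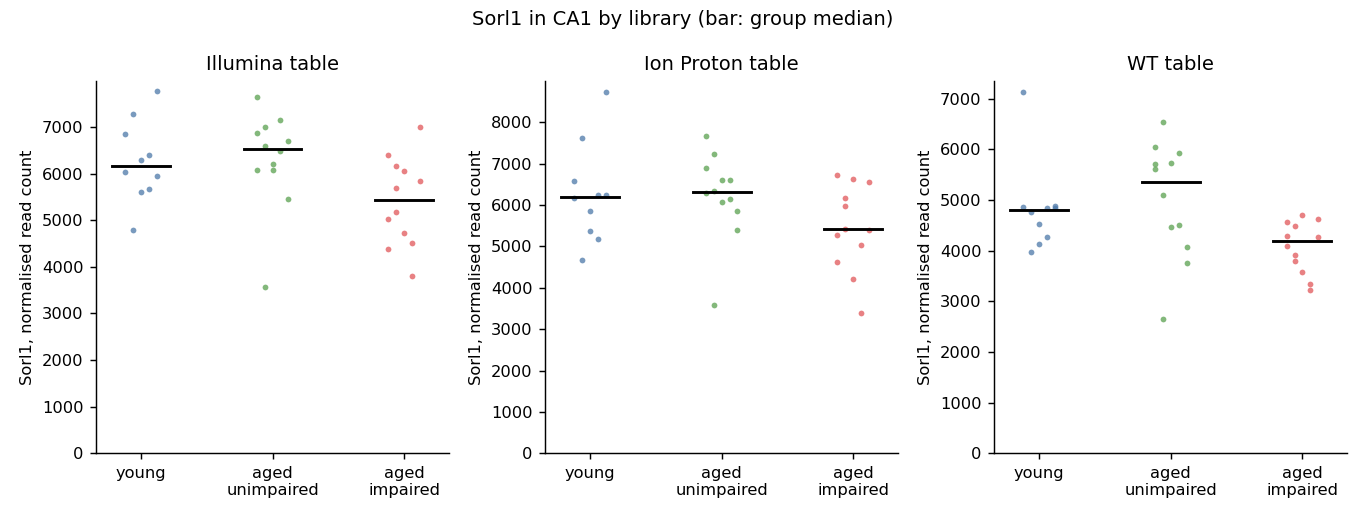
Normalised read count of Sorl1 in each CA1 library (vertical axis) by class (horizontal axis) in the Illumina, Ion Proton and WT tables, with a bar at the median. The medians of aged unimpaired and aged impaired rats are 6535 and 5433 on Illumina, 6313 and 5408 on Ion Proton and 5362 and 4188 in the WT table, and the classes overlap in all 3.

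In CA3 and DG the Sorl1 differences were 0.00 (interval -0.33 to 0.33) and -0.02 (interval -0.18 to 0.15). In CA3 it was 0.07 on Ion Proton and -0.14 in the WT table (limma, p = 0.264). The CA3 interval included the CA1 difference of -0.23. The difference between subfields was tested directly, in a fit over all 9 groups, and did not pass: -0.22 for CA1 minus CA3 (interval -0.55 to 0.10, limma, p = 0.179) and -0.21 for CA1 minus DG (interval -0.54 to 0.12, p = 0.215). Of the other members, none differed by more than 0.09 with impairment in the Illumina table in any subfield. App gave -0.02, -0.01 and 0.07, Bace1 -0.06, 0.02 and 0.00, and Mapt -0.04, 0.04 and -0.01. Apoe gave 0.03, -0.09 and 0.02, Clu -0.03, -0.07 and 0.04, and Bin1 -0.04, -0.05 and 0.02. Psen2 gave 0.06, -0.02 and 0.04, and in the WT table its DG difference was 0.23 (p = 0.0133), with 11 of 12 impaired rats above the unimpaired median there.

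No member's age or impairment difference was shown to differ between subfields. In the same fit limma called 0 of 8 members and 0 genes in all for each of the 6 differences of effects. Between 50 and 740 of 14179 genes had an unadjusted p under 0.05, and edgeR called 14 genes for age in CA1 minus CA3, 2 for impairment in CA1 minus CA3 and 1 for impairment in CA3 minus DG. The lowest p of a member was that of Psen2 for age in CA3 minus DG (-0.15, p = 0.0613).

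In the poly-A tables the largest differences seen in these genes lay between the number series, in CA3. This comparison was added after the data had been seen, with 18 rats below 9000 and 16 from 9000 up and the call rule of the subfield comparison. In CA3 5 of 8 members were called, where 22.5% of all genes were. In CA1 1 of 8 was called, where 8.94% of genes were, and in DG limma called 0 of 8, where 6.66% were, with 2 members at an unadjusted p under 0.05 on Illumina. Class was nearly balanced between the series. Site, supplier and anything else that goes with the numbers cannot be told apart.

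App in CA3 was 23130, 25391 and 27119 (lowest, median and highest) in the rats below 9000 and 14377, 19172 and 21574 in those from 9000 up. The series did not overlap on Illumina, while on Ion Proton they did (15217, 22662 and 25825 against 13679, 16988 and 20394). The log2 difference was -0.48 (limma, adjusted p = 1.79e-20) and -0.40 on Ion Proton (adjusted p = 3.02e-07). In the WT table it was -0.18 and the series overlapped. In DG App differed by 0.02 on Illumina.

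Sorl1 in CA3 was 3735, 6010 and 8511 below 9000 and 3014, 3978 and 7184 from 9000 up, with 15 of 16 of the latter under the median of the former. The difference was -0.44 (limma, adjusted p = 8.17e-06) and -0.63 on Ion Proton (adjusted p = 3.59e-09). Mapt in CA3 was lower from 9000 up, with differences of -0.30 on Illumina and -0.48 on Ion Proton, as was Bin1 with -0.23 and -0.24. Apoe went the other way, at 30800, 35689 and 40856 below 9000 and 20860, 44326 and 56815 from 9000 up, a difference of 0.25 on Illumina and 0.53 on Ion Proton. In the WT table these CA3 differences, read without a test, were -0.28 for Sorl1, -0.17 for Mapt, -0.40 for Bin1 and 0.02 for Apoe. Bace1 and Psen2, both at -0.21 on Illumina, did not pass on Ion Proton. With the rat as a replicate block Bace1 passed on both platforms (limma, adjusted p = 2.05e-07, and 0.0473 on Ion Proton), which made 6 of 8 members called in CA3, beside 22.5% of all genes. Clu gave 0.01 in CA3 and was the member called in CA1, at 0.24 on Illumina and 0.48 on Ion Proton.

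**Figure D4:**
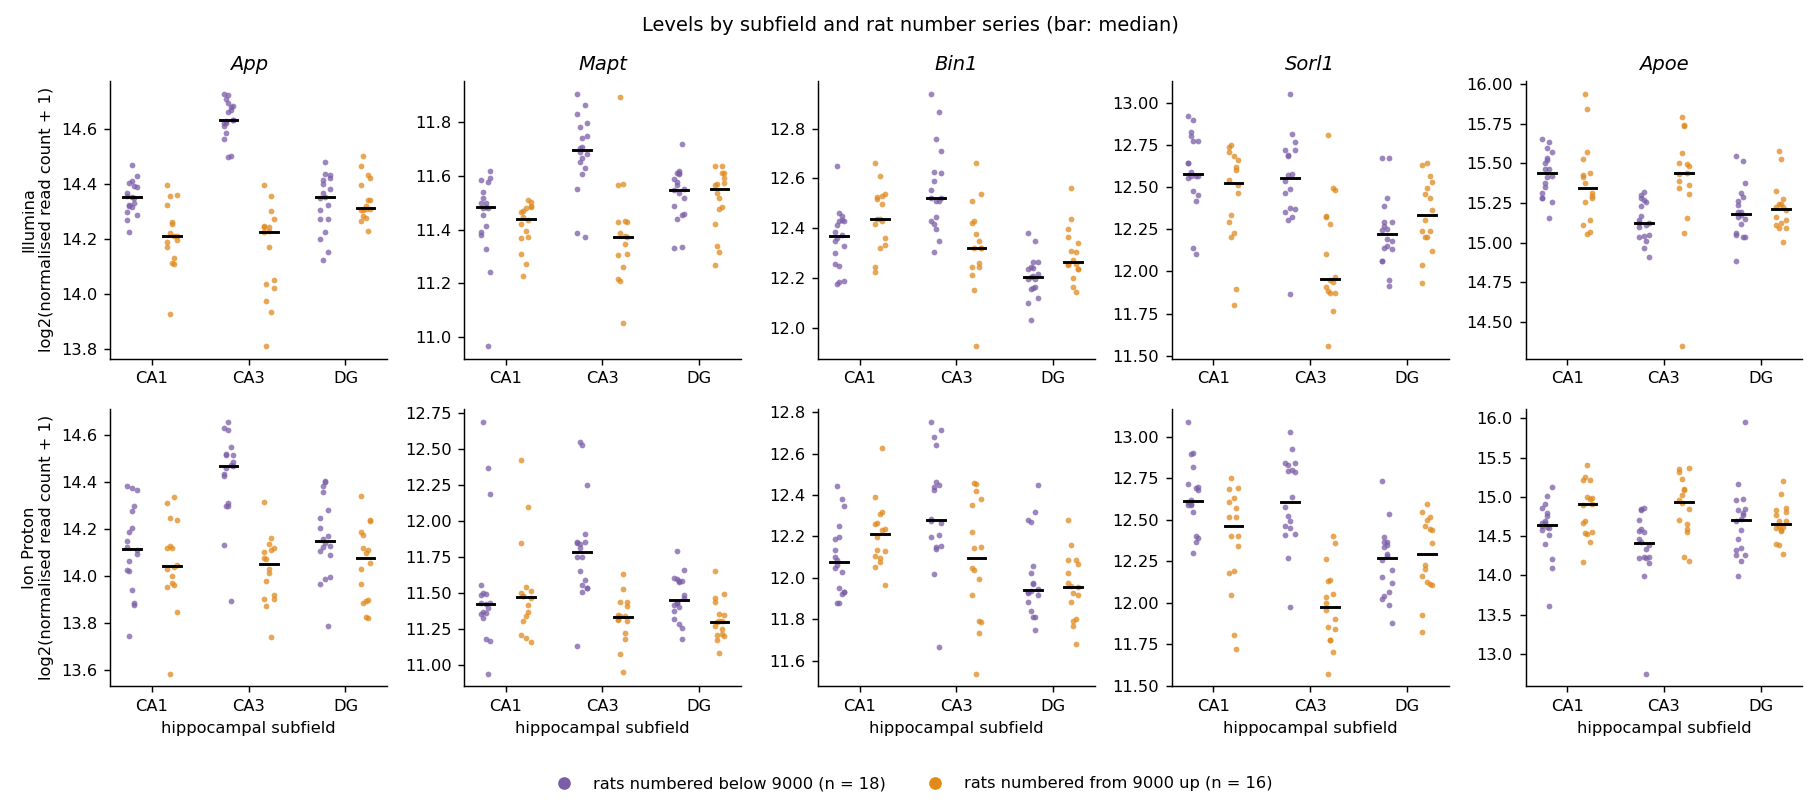
Normalised read count of App, Mapt, Bin1, Sorl1 and Apoe in each library (vertical axis) by subfield and rat number series (horizontal axis), with Illumina above and Ion Proton below and a bar at the median. In CA3 the App medians are 25391 below 9000 and 19172 from 9000 up on Illumina, against 20896 and 20366 in DG.

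These series differences were unequal between subfields. CA1 minus CA3 gave 3 of 8 members, where 13.7% of genes were called, namely App (0.34), Mapt (0.27) and Bin1 (0.32). CA3 minus DG gave 2 of 8, where 16.8% were called, namely App (-0.49) and Sorl1 (-0.54). CA1 minus DG gave 0 of 8 by limma, where 0.106% were called, with 2 members at an unadjusted p under 0.05. With the rat as a replicate block CA1 minus CA3 gave 5 of 8, Clu and Sorl1 being added, where 15.3% of genes were called. CA3 minus DG then gave 3 of 8, where 19% were called, Apoe being added at 0.23 (limma, adjusted p = 0.0315, and 0.52 with adjusted p = 0.0266 on Ion Proton). Without the libraries nearer to another subfield CA1 minus CA3 gave App, Bin1 and Sorl1, where 11.9% of genes were called, and CA3 minus DG gave 1, Sorl1, where 16.1% were called.

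The order of the subfields within a rat differed by series on the poly-A platforms. App was higher in CA3 than in DG in 18 of 18 rats below 9000 and in 1 of 16 from 9000 up on Illumina, and in 17 of 18 and 7 of 16 on Ion Proton. Sorl1 was higher in CA3 than in DG in 16 of 18 and 3 of 16 on Illumina and in 15 of 18 and 3 of 16 on Ion Proton. Bin1 was higher in CA3 than in DG in 18 of 18 and 9 of 16 on Illumina and in 15 of 18 and 8 of 16 on Ion Proton. In the WT table the counts from 9000 up were 9 of 16 for App and for Sorl1 and 8 of 16 for Bin1, beside 18, 16 and 18 of 18 below 9000. Between CA1 and DG the series gave the same sign for Bin1 in all 3 tables. For Clu and Apoe they did so on Illumina and in the WT table, while on Ion Proton the means were -0.10 below 9000 and 0.40 from 9000 up for Clu and -0.08 and 0.16 for Apoe.

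Cell markers in CA3 moved with the series too. Summed over 8 neuronal markers the median was 122348 below 9000 and 82826 from 9000 up, with ranges of 83832 to 139464 and 68891 to 104085. The summed astrocyte markers had medians of 63746 and 81895, the CA3 markers 18321 and 12310, and the oligodendrocyte markers 164000 and 115666. On both poly-A platforms the CA1 and the DG markers, as mean standardised levels, were mostly higher in the CA3 libraries from 9000 up. In DG the neuronal sums were nearly level, at 110428 and 110076. Their part in the series differences was not tested.

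After centring on the subfield mean, App correlated with the mean standardised level of the neuronal markers at r = 0.85 on Illumina and 0.67 on Ion Proton, and Sorl1 at 0.70 and 0.71. Mapt did so less, at 0.47 on both. Bin1 correlated with oligodendrocyte markers at 0.76 and 0.41 and with markers of their precursors at 0.26 and 0.46, so that the order of these lists differed between platforms. The precursor markers gave 0.36 and 0.54 for Bace1, 0.23 and 0.58 for Psen2, 0.39 and 0.57 for Clu, and -0.05 and 0.41 for Apoe, each higher on Ion Proton. Clu correlated with choroid plexus and ependymal markers at 0.60 and 0.55, with microglial markers at 0.54 and 0.57 and with astrocyte markers at 0.47 and 0.43. Apoe correlated with microglial markers at 0.45 and 0.51 and with astrocyte markers at 0.35 and 0.44. The libraries, 34 of each subfield in a table, come from 34 rats and share rat, dissection, number series and normalisation, so these r values are a description.

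**Figure D5:**
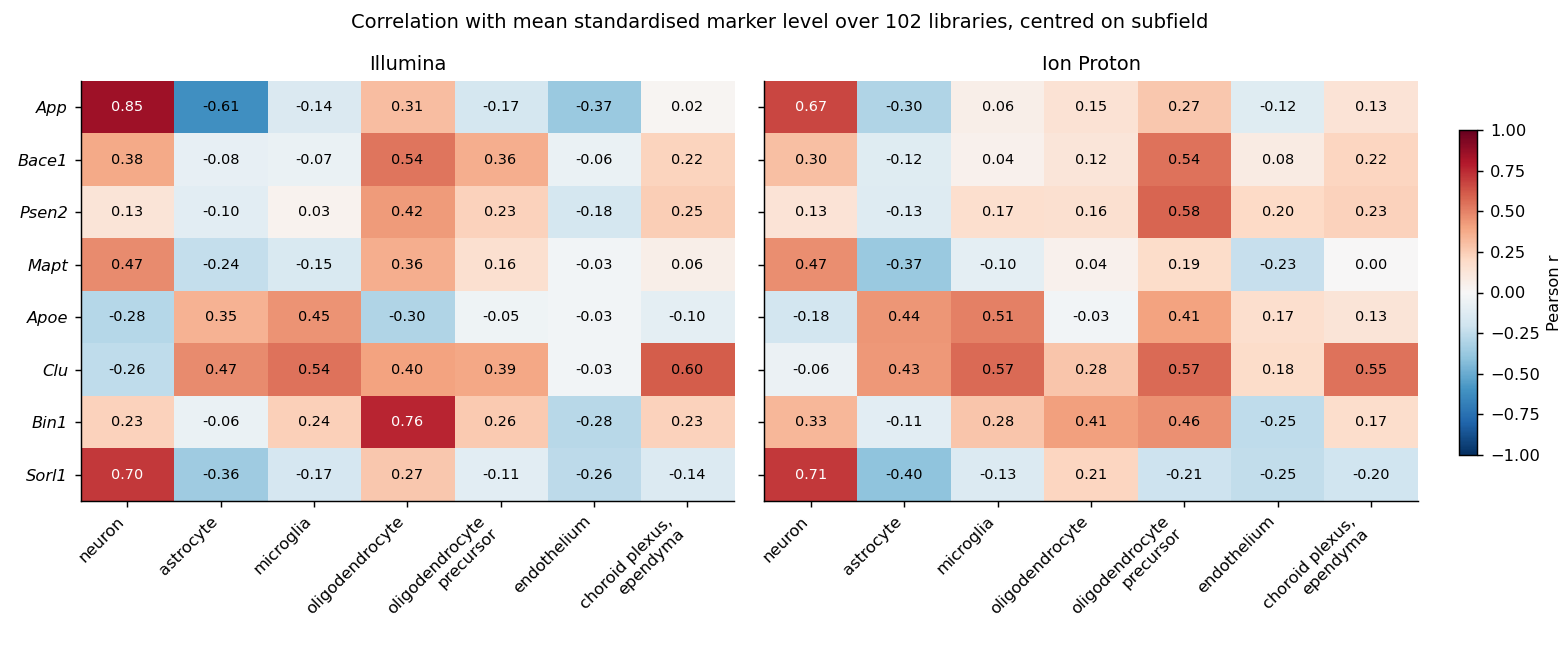
Pearson r over all libraries of a table, 34 of each subfield, each centred on its subfield mean, between each of the 8 genes and the mean standardised log2 level of each list of cell markers, on Illumina and on Ion Proton, with colour from negative to positive r. App and Sorl1 stand highest with neuronal markers (0.85 and 0.70 on Illumina, 0.67 and 0.71 on Ion Proton), and Bin1 with oligodendrocyte markers on Illumina (0.76) and with precursor markers on Ion Proton (0.46).

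The genes whose pattern was most like that of a member were found on Illumina by the same centred r and read again on Ion Proton. For App they were Usp5 (0.92 and 0.75), Apbb1 (0.90 and 0.61), which encodes a protein that binds the tail of the amyloid precursor, and Syt11 (0.90 and 0.81). For Sorl1 they were Trim2 (0.90 and 0.79), Atp2b1 (0.89 and 0.63) and Pragmin (0.85 and 0.57). For Bin1 they were Josd2 (0.84 and 0.58), Dbndd2 (0.84 and 0.74) and APLP1 (0.84 and 0.77), a homologue of App. The genes named for these 3 members were ranked on Illumina alone, and their r on Ion Proton was 0.57 or more.

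For Mapt the closest genes were Eif4g3 (0.85 and 0.80), Wbp2 (0.83 and 0.58) and Kif1b (0.82 and 0.10). For Clu they were Cnn3 (0.84 and 0.60), Fuca1 (0.82 and 0.30) and Cst3 (0.81 and 0.24). For Bace1 they were Ttll7 (0.80 and -0.16), Nipa1 (0.79 and -0.29) and Tppp (0.77 and 0.58). The likeness on Illumina was thus absent on Ion Proton for some of the genes named.

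For Apoe the closest genes were the ribosomal protein genes Rps15 (0.82 and 0.55) and Rps21 (0.81 and 0.37) and the mitochondrial ND3 (0.80, with no Ion Proton value here). For Psen2 they were Tppp3 (0.61 and 0.14), Ech1 (0.59 and 0.70) and Rap1a (0.57 and -0.54). Among the 28 pairs of members themselves, the centred r was positive in all 3 tables for 18, negative in all 3 for 4 and of mixed sign for 6. Bace1 and Mapt went together (0.74 on Illumina, 0.49 on Ion Proton and 0.78 in the WT table), as did Apoe and Clu (0.41, 0.59 and 0.41). Apoe and Sorl1 went apart (-0.49, -0.43 and -0.10).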

How the data were processed

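The authors deposited 3 tables of normalised read counts per gene (a signal scaled by size factors), each with 34 libraries of each subfield. Per the labels and the study's methods, Illumina reads were trimmed with cutadapt 1.8.3, aligned to rn5 with STAR 2.5, counted with featureCounts 1.4.4 and normalised with DESeq2 (1.16.1 in the submitters' processing notes, another version in the methods; bcl2fastq 2.17 before), and Ion Proton reads were aligned with TopHat2 and Bowtie2. How the WT table was made is not given in the sources used here. Every column was mapped to a sample (0 were left out). Dividing by the smallest step of each column gave whole reads for 100% of values within 0.01.

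Genes with a mean of at least 10 were tested on log2(value + 1) with limma 3.58.1 (R 4.3.3, trend on), Benjamini-Hochberg adjusted over all genes, each table apart, so that a fold change understates that of low genes. Subfields were compared in 1 fit over 3 groups of 34 libraries, age and impairment within each subfield, and differences between subfields in a fit of 9 groups. edgeR 4.0.16 and DESeq2 1.42.0 on the recovered reads were alternatives. So were another pseudocount (0.1), no filter, quantile or TMM scaling, the WT table, each number series alone and the number series as a covariate. In others, deep rats, libraries nearer to another subfield or each rat were left out. Rats pair the subfield libraries because they come from the same animal, so the rat was a replicate block in alternative fits. For the subfield comparisons the rat entered as a fixed term. For the number series and the fit of 9 groups it entered through an estimated correlation within rats. The scripts were tested on simulated data. All 8 members are named throughout, up to 4 called genes of each surrounding list with the largest change were eligible to be named, and the 3 genes most like each member are given. The members and lists were chosen with earlier results of these data known. A gene of the precursor processing list is not reported here and was taken out of its counts and medians.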

Additional observations from a re-analysis of the deposited data

Results flagged for a closer look

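In 24 groups of 10 young libraries (8 genes in 3 subfields), 2 held a highest library that stood apart by Dixon's criterion, where chance gives about 1 in 20 groups. Psen2 in CA1 reached 278 with the next library at 254, and Clu in DG reached 12737 with the next at 10157. Groups of 12 were not tested.

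The difference of the rats numbered from 9000 up from those below differed between subfields for members as tested by limma in 1 fit. For CA1 minus CA3 the difference of effects was 0.34 for App (SE 0.05, adjusted p = 4.34e-08), 0.27 for Mapt (SE 0.07, adjusted p = 0.000554) and 0.32 for Bin1 (SE 0.06, adjusted p = 3.69e-05). For CA3 minus DG it was -0.49 for App (SE 0.05, adjusted p = 1.70e-13) and -0.54 for Sorl1 (SE 0.12, adjusted p = 0.000141). The comparison was chosen after seeing the data, and the number series cannot be told apart from site, supplier or anything else that goes with the numbers.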

How the results depend on the processing

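Of 126 counts of called members under the alternatives, 108 were equal to the reported count or within 1.5 times of it. Only the numbers called were compared, not which members. Many of the 108 were a reported 0 for age or impairment that stayed 0. Few genes were called there at all, so these counts could hardly change. In CA1 against CA3 the reported 1 became 0 with no filter, with TMM factors and without the deeply sequenced rats, 2 with the rat as replicate block (App, Sorl1) and in rats below 9000 (App, Bin1), and 4 in the WT table. App there reversed to 0.058 in rats from 9000 up. In CA1 against DG the reported 2 became 5 in the WT table and 1 in rats below 9000. In CA3 against DG the reported 1 became 2 with quantile normalisation, with the replicate block (Clu, Bin1) and without the deeply sequenced rats, 3 with DESeq2 and without libraries nearer to another subfield, 4 in rats below 9000 and 6 in the WT table. For impairment in CA1 the reported 0 became 1 (Sorl1) without libraries nearer to another subfield, where 0.846% of genes were called against 0.62%. The series effects gave 5 in place of 3 for CA1 minus CA3 with the replicate block, and 1 in place of 2 for CA3 minus DG without libraries nearer to another subfield. Where the reported count was kept, the member could differ: in CA1 against CA3 the 1 called was Sorl1 with quantile normalisation and in rats from 9000 up, in CA1 against DG the 2 were Clu and Bin1 in rats from 9000 up, and in CA3 against DG the 1 was Sorl1 in rats from 9000 up. The series call in CA3 gave 6 in place of 5 and that of CA3 minus DG 3 in place of 2 with the replicate block. The share of all genes called moved as well. In the WT table it was 33%, 45.9% and 48.7% for these 3 subfield comparisons, against 14.1%, 26.4% and 27.9% as reported. In rats below 9000 it was 21.4%, 15.4% and 22.9%, in rats from 9000 up 3.88%, 20.5% and 21.6%, and with the replicate block 15.8%, 29.2% and 30.8%. In CA1 against CA3 it was 8.34% with no filter, 14% with TMM factors, 15% with quantile normalisation and 11.6% without the deeply sequenced rats. In CA3 against DG it was 29.5% with quantile normalisation, 31.7% with DESeq2, 29.1% without libraries nearer to another subfield and 27.7% without the deeply sequenced rats. With the number series as a covariate, no member was called for age or impairment in any subfield. The shares of all genes there were 1.32%, 0.611% and 1.38% for age in CA1, CA3 and DG. For impairment they were 0.683%, 0.0492% and 0.478%. The cause of these changes was not tested. Single differences of members that were not called changed sign in 12 of 240 values between subfields, where 27 were called, and in 56 of 576 for age and impairment, where 1 was called. The WT table was tested alone, without a second platform. Precision is limited by 10 to 12 rats a class.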
